A study of Ovis aries with 10 samples.

Results

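The genes described here encode transcription factors of the sympathoadrenal lineage, the neural crest lineage that forms the chromaffin cells of the adrenal medulla and the sympathetic neurons. A set of 7 was chosen (NEUROD4, PHOX2A, HAND2, GATA2, GATA3, INSM1 and ISL1), and rows were taken from the authors' deposited table of differential expression where the symbol equalled one of these names. Of the 7, 5 were found, each in 1 row of the 19316, while GATA2 and INSM1 were not found under their symbols and are not analysed here. The set was drawn up with the comparison of endotoxin and control already known, so its fold changes and p-values are given as a description and not as tests.

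Messenger RNA had been sequenced from adrenal glands of sheep fetuses at 102 days of gestation, in 5 libraries of fetuses injected with endotoxin and 5 libraries of fetuses injected with saline. Each group held 3 female and 2 male libraries. Endotoxin is lipopolysaccharide from the outer membrane of Gram-negative bacteria and provokes inflammation. The labels give the tissue as adrenal gland with no division, so cortex and medulla were measured together, and a lower level in such a sample cannot be told apart between fewer cells of a type and less RNA per cell.

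Chromaffin cells and sympathetic neurons arise from neural crest cells that switch on a common set of factors, which then activate one another and the genes of noradrenaline synthesis. PHOX2A, a homeodomain factor, binds the promoters of noradrenaline enzymes, and HAND2, a basic helix-loop-helix factor, cooperates with it. GATA2 and GATA3 are zinc finger factors, and in the mouse GATA3 is needed for sympathoadrenal cells to survive and express tyrosine hydroxylase. INSM1 is a zinc finger factor needed for chromaffin cell differentiation in the mouse. ISL1 is a LIM homeodomain factor of sympathetic neuron development, and NEUROD4 is a basic helix-loop-helix factor of the NEUROD family, expressed in young neurons as they leave the cell cycle.

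The libraries held between 12494386 and 18324516 estimated counts. The tables with a value for each library carry gene IDs with the cattle prefix ENSBTAG. With the sheep gene list at hand, 0 of 20781 could be paired with a symbol. The transcription factor genes therefore have group means but no value per library. In the authors' deposited table, the 5435 rows without a symbol carry sheep transcript IDs (ENSOART). The sets of genes thus differ, and counts from one are not like for like with counts from the other. The authors' deposited table calls its groups A and B. Group B was taken as endotoxin because changes of at least 4-fold in mean TPM plus 1 lean the same way in both tables. The labelled TPM table holds 40 such rises and 8 such falls with endotoxin, and the authors' deposited table holds 34 and 7 for B over A. If that reading were wrong, every direction below would turn. Without symbols, edgeR's quasi-likelihood test on the counts called 29 of 14869 genes (0.195%) at an adjusted p under 0.05, and 2089 at an unadjusted p under 0.05. DESeq2 called 360 of the 14821 genes to which it gave an adjusted p (2.43%). Of the edgeR calls 28 were higher with endotoxin and 1 lower, and of the DESeq2 calls 256 were higher and 104 lower. Whether NEUROD4 is among them could not be seen without symbols. As edgeR called 1 gene lower, at most 1 of NEUROD4, CENPF, TOP2A, BUB1B and CDK1, the falls named below, can be an edgeR call.

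The 5 genes covered a wide range of levels. TPM (transcript abundance within a fixed library total) is scaled by transcript length, so it allows genes to be set beside each other. HAND2 had the highest mean, at 435 TPM in endotoxin glands and 591 TPM in control glands in the authors' deposited table. It ranked 216 among the 13881 rows with a symbol in endotoxin glands and 139 in control glands. PHOX2A followed in the authors' deposited table, with means of 90.1 TPM in endotoxin glands and 130 TPM in control glands. GATA3 averaged 48.7 TPM in endotoxin glands and 65.7 TPM in control glands, and ISL1 averaged 19.5 TPM in endotoxin glands and 29.0 TPM in control glands, in the authors' deposited table.

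NEUROD4 stood far below the other four, with a mean of 0.584 TPM in endotoxin glands and 2.16 TPM in control glands in the authors' deposited table. That placed it 11728 of 13881 symbols in endotoxin glands and 10303 in control glands. The order of the 5 genes was the same in both groups. HAND2 had 4.83 times the level of PHOX2A in endotoxin glands and 4.53 times in control glands. PHOX2A had 1.85 times the level of GATA3 in endotoxin glands and 1.99 times in control glands, and GATA3 had 2.49 times the level of ISL1 in endotoxin glands and 2.26 times in control glands. The step from ISL1 to NEUROD4 was the widest in both groups, at 33.4 times in endotoxin glands and 13.5 times in control glands. The authors give no spread for these means, so whether neighbours in the order differ beyond the spread between libraries could not be examined.

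**Figure D1:**
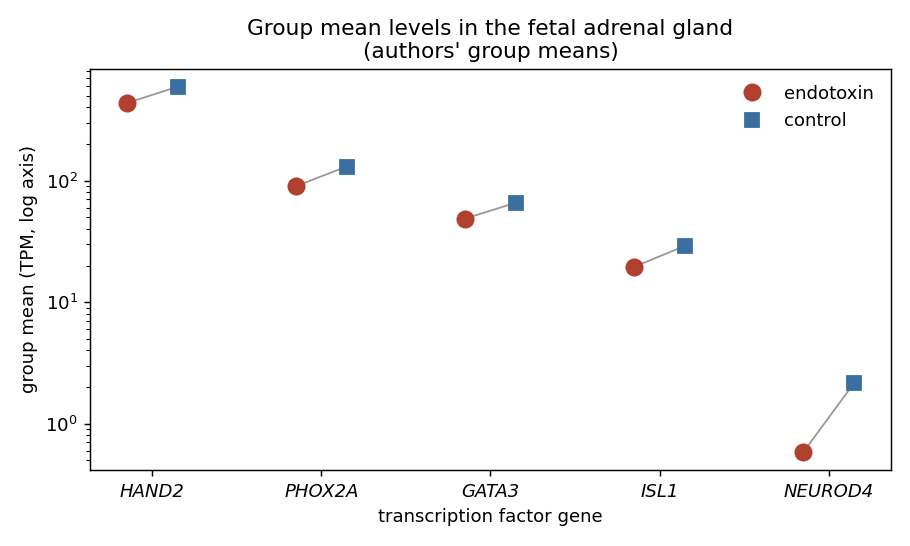
Group mean levels of the 5 transcription factor genes in TPM on a log axis, with endotoxin as circles and control as squares and a line joining the means of each gene. All 5 endotoxin means lie below the control means, and NEUROD4 shows the steepest line, at 0.584 TPM with endotoxin and 2.16 TPM in control.

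Markers of both compartments of the gland were abundant. TH, tyrosine hydroxylase, the first enzyme of catecholamine synthesis, averaged 1343 TPM in endotoxin glands and 1254 TPM in control glands in the authors' deposited table. Relative to TH, HAND2 stood at 32.4% in endotoxin glands and 47.2% in control glands, and PHOX2A at 6.71% in endotoxin glands and 10.4% in control glands. GATA3 stood at 3.62% of TH in endotoxin glands and 5.24% in control glands. ISL1 was at 1.45% and NEUROD4 at 0.0435% of TH in endotoxin glands, against 2.32% and 0.172% in control glands. NR5A1, the nuclear receptor that drives steroid enzyme genes in the cortex, averaged 99.6 TPM in endotoxin glands and 67.5 TPM in control glands in the authors' deposited table. The level of HAND2 was thus 4.36 times that of NR5A1 in endotoxin glands and 8.76 times in control glands.

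All 5 genes had lower means with endotoxin. The mean of NEUROD4 in endotoxin glands was 27.1% of that in control glands. For the other four the endotoxin mean was between 67.3% and 74.1% of the control mean, with ISL1 lowest, then PHOX2A at 69.1%, HAND2 at 73.6% and GATA3 highest. In absolute terms the order was different. HAND2 differed by -156 TPM (endotoxin minus control), PHOX2A by -40.3 TPM, GATA3 by -17.0 TPM, ISL1 by -9.50 TPM and NEUROD4 by -1.57 TPM. Summed, the 5 genes came to 594 TPM in endotoxin glands and 818 TPM in control glands, of which HAND2 made up 73.2% in endotoxin glands and 72.2% in control glands.

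The authors' count model gives a fold change with an error. NEUROD4 had a log2 fold change of -1.80 ± 0.53 (SE), a 3.49-fold lower level, in the authors' deposited table, with p = 0.000608 and adjusted p = 0.0401. It is the single gene of the 5 with an adjusted p under 0.05 there, beside 0.426% of all 19236 rows with a p that were called lower, 1.29% called higher and 1.72% called in either direction. Because the genes were chosen on this comparison, nothing is read from that count. The 95% interval of NEUROD4, taken as a normal interval from the authors' SE, ran from -2.84 to -0.77, which is a level 1.71 to 7.14 times lower.

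The other four genes had log2 fold changes between -0.42 and -0.27, and none had an adjusted p under 0.05. In the authors' deposited table ISL1 was at -0.42 ± 0.29 (SE) with adjusted p = 0.607, and its interval ran from -0.997 to 0.15. PHOX2A was listed in the authors' deposited table at -0.35 ± 0.32 with adjusted p = 0.755, and its interval ran from -0.97 to 0.28. HAND2 was listed in the authors' deposited table at -0.30 ± 0.30 with adjusted p = 0.79 and had an interval from -0.89 to 0.29. GATA3 was listed in the authors' deposited table at -0.27 ± 0.25 with adjusted p = 0.745 and had an interval from -0.76 to 0.21. Each of these 4 intervals includes no change and also a level 1.69 times lower, so the values neither show a fall nor show that the level was the same. The intervals of ISL1, PHOX2A and HAND2 overlap that of NEUROD4. The lower bound for GATA3, -0.756, lies just above the upper bound for NEUROD4, -0.773. The difference between NEUROD4 and the others was not tested, since the authors' deposited table gives no covariance between genes. The genes were also chosen on this comparison, so nothing is read from whether these intervals overlap.

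**Figure D2:**
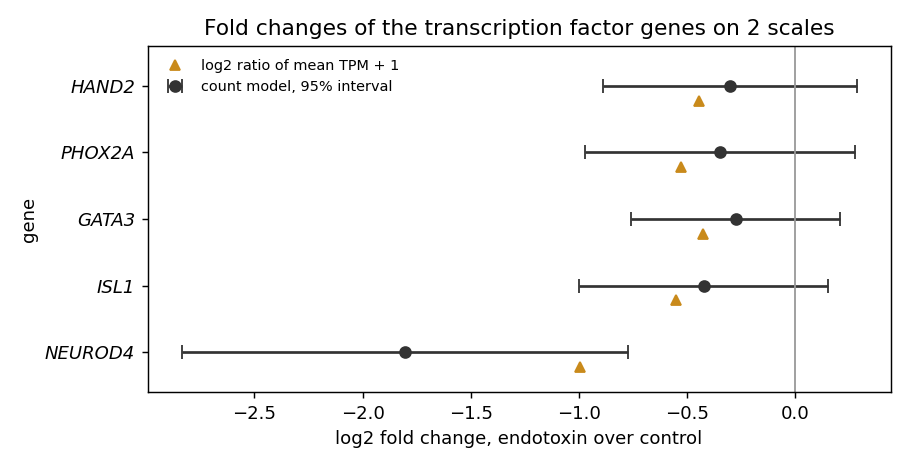
Log2 fold changes, endotoxin over control, with circles and bars for the authors' count model and its 95% interval and triangles for the log2 ratio of mean TPM plus 1. NEUROD4 lies at -1.80 on the first scale and -0.995 on the second, and the intervals of the other four include 0.

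The scale mattered most for NEUROD4. On the log2 ratio of mean TPM plus 1, which is the authors' own log2 column, NEUROD4 stood at -0.995 in the authors' deposited table, because adding 1 TPM to means of 0.584 and 2.16 TPM compresses their ratio. With 0.1 TPM added it was -1.72, and with nothing added -1.89. For the other four genes the TPM scale gave lower values than the model, at -0.55 for ISL1, -0.53 for PHOX2A, -0.44 for HAND2 and -0.43 for GATA3, in the authors' deposited table. Among the 14402 rows averaging 1 TPM or more, the middle value was 0.012 for the model and -0.10 for the TPM ratio. So part of the lower TPM of these 4 genes is shared by the whole table. On the model scale, with the model median of 0.012 subtracted, these 4 genes stood between -0.43 and -0.29.

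The spread between libraries can be seen only through the standard errors. Each gene was set beside all rows with a p and a mean within 2-fold of its own. The standard error of NEUROD4, 0.53, compares with a median of 0.34 over 2787 such rows. PHOX2A at 0.32 and HAND2 at 0.30 compare with medians of 0.18 and 0.19, and ISL1 at 0.29 and GATA3 at 0.25 compare with 0.17 for both. Between 79.7% (NEUROD4) and 92.8% (PHOX2A) of rows at a like level had a smaller standard error. All 5 genes thus had larger errors than most rows of similar level. In fold change, 0.574% of the rows near NEUROD4 lay lower than it, or 16 rows. That share was 2.91% for PHOX2A, 3.30% for HAND2, 3.92% for ISL1 and 6.36% for GATA3, as a description of where the chosen genes lie.

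**Figure D3:**
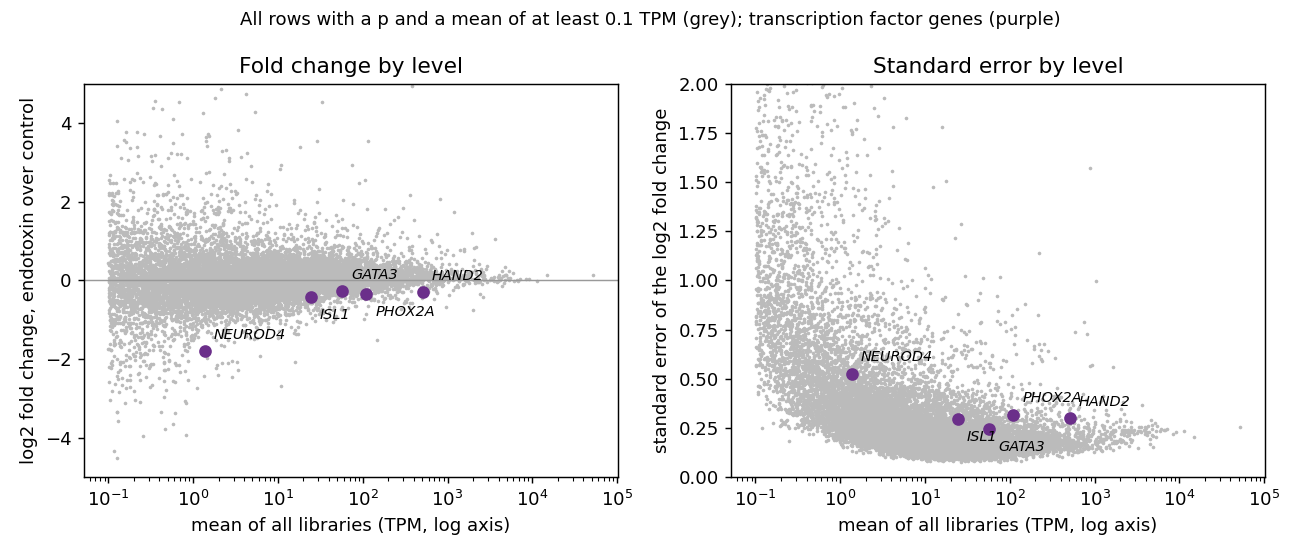
Left, log2 fold change (endotoxin over control, count model) against the mean of all libraries in TPM on a log axis. Right, the standard error against the same axis, with each row that has a p and averages 0.1 TPM or more in grey and the 5 transcription factor genes in purple. NEUROD4 lies at the low edge of the cloud on the left, and all 5 lie in the upper part of the cloud on the right. Of 17236 rows, 20 lie outside the left axis and 276 outside the right one.

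NEUROD4 was near the edge of the authors' call. By p it was row 292 of the 330 with an adjusted p under 0.05, and 38 called rows had a larger p. Ranked by fold change alone among 11250 rows with a symbol, a p and 1 TPM or more on average, it ranked 7 from the lowest. It averages 0.584 TPM with endotoxin and 2.16 TPM in control, so it passes that mean only through the control group, and it was chosen on this fold change, so the rank is only a description. The 3 rows just below it in fold change were NR4A3, an orphan nuclear receptor, at -1.92 ± 0.87 (SE), the adipocyte hormone gene ADIPOQ at -2.06 ± 1.78 and the T cell receptor segment TRAV19 at -2.10 ± 1.07, in the authors' deposited table. Their adjusted p there lay between 0.297 and 0.729. Just above it were NRK, a protein kinase, at -1.63 ± 0.40 (adjusted p = 0.00726), RHEX at -1.56 ± 0.85 (adjusted p = 0.437) and HDC, histidine decarboxylase, at -1.51 ± 0.89 (adjusted p = 0.491). These too are from the authors' deposited table. Likeness here rests on 1 fold change between 2 group means.

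Other factors of the lineage had no calls. Of the 12 other sympathoadrenal transcription factors listed, 9 were found and none passed. Over all rows with a p, 1.72% were called in either direction. The absence of a call in a list this short therefore says little, here and for the lists below. Their median log2 fold change was -0.03, with 5 negative and 4 positive, against a median of -0.35 for the 5 genes and 0.0077 for all rows. EPAS1, the hypoxia factor abundant in chromaffin cells, averaged 43.7 TPM in endotoxin glands and 56.7 TPM in control glands, a log2 fold change of -0.23 ± 0.22 in the authors' deposited table (adjusted p = 0.77). TBX3, a T-box repressor, was at 0.33 ± 0.20 in the authors' deposited table (adjusted p = 0.512). TFAP2B, an AP-2 factor of noradrenergic cells, was named after its value was seen, and stood at -0.63 ± 0.30 in the authors' deposited table (adjusted p = 0.322). HAND1, the close relative of HAND2, averaged 9.47 TPM in endotoxin glands and 7.72 TPM in control glands in the authors' deposited table, and its log2 fold change was 0.52 ± 0.48 (adjusted p = 0.76). The level of HAND2 was 45.9 times that of HAND1 in endotoxin glands and 76.5 times in control glands.

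Among relatives of NEUROD4, 2 of 10 listed genes were found, and 1 rose, beside 1.29% of all rows with a p that were called higher. With 2 genes, nothing is read from that count. This was ATOH8, a basic helix-loop-helix factor, at 7.44 TPM in endotoxin glands and 4.09 TPM in control glands in the authors' deposited table. Its log2 fold change was 0.96 ± 0.28 in the authors' deposited table (adjusted p = 0.0368). The proneural factor ATOH1 averaged 0.0135 TPM in endotoxin glands and 0.0554 TPM in control glands there, at -1.30 ± 2.81 (adjusted p = 0.952).

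Basic helix-loop-helix factors such as HAND2 and NEUROD4 bind DNA as dimers with E proteins (TCF3, TCF4 and TCF12), and ID proteins capture these partners. LDB1 and LMO proteins bridge LIM and GATA factors, and ZFPM2 is a GATA cofactor. Of 12 such genes 9 were found, and none passed, with a median of -0.10. ID1 was the most abundant, at 223 TPM in endotoxin glands and 176 TPM in control glands, a log2 fold change of 0.42 ± 0.27 in the authors' deposited table (adjusted p = 0.552). LMO2 was at 0.36 ± 0.23 in the authors' deposited table (adjusted p = 0.571). TCF4 at -0.50 ± 0.21 (adjusted p = 0.231) was the lowest in the authors' deposited table and is named after it was seen. In the Notch pathway, which restrains proneural factors, none of 11 measured genes of 13 passed. Their median log2 fold change was 0.03, with 7 positive and 4 negative. HES1, a repressor activated by Notch, averaged 34.6 TPM in endotoxin glands and 40.2 TPM in control glands, and HEYL averaged 19.9 TPM in endotoxin glands and 22.4 TPM in control glands, in the authors' deposited table. On the model scale they stood there at -0.10 ± 0.22 (adjusted p = 0.957) and -0.02 ± 0.19 (adjusted p = 0.981).

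The effector genes of chromaffin cells, many of them targets of these factors, had no calls either. Of 19 listed, 18 were found, 1 of them had no p, and none of the other 17 passed, beside 1.72% of all rows with a p. Their median log2 fold change was -0.09, with 11 negative. CHGA, chromogranin A of the secretory granules, averaged 3648 TPM in endotoxin glands and 4096 TPM in control glands, at -0.03 ± 0.24 in the authors' deposited table (adjusted p = 0.982). CHGB was at -0.43 ± 0.28 (adjusted p = 0.559) and TH at 0.23 ± 0.26 in the authors' deposited table (adjusted p = 0.828). PNMT, which converts noradrenaline to adrenaline and is induced by glucocorticoids, averaged 1307 TPM in endotoxin glands and 330 TPM in control glands, at 2.07 ± 0.73 in the authors' deposited table (adjusted p = 0.123). It was named after its value was seen. The summed means of the list were 11628 TPM in endotoxin glands and 11866 TPM in control glands. These sums join opposite differences and do not show that the list was unchanged. PNMT had the higher mean with endotoxin, while CHGB averaged 2116 TPM in endotoxin glands and 3193 TPM in control glands in the authors' deposited table.

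Of 14 neuroblast and neuronal genes 12 were found, 2 without a p, and none of the other 10 passed. Their median was -0.11 with 6 negative and 6 positive, and 0.01 among those averaging 1 TPM or more. STMN2, a tubulin regulator of growing neurites, averaged 999.2 TPM in endotoxin glands and 1336 TPM in control glands, at -0.23 ± 0.38 in the authors' deposited table (adjusted p = 0.921). UCHL1, a neuronal ubiquitin hydrolase, was at 0.01 ± 0.37 in the authors' deposited table (adjusted p = 0.997). The lowest, named after it was seen, was DCX, a microtubule protein of migrating young neurons. Its means were 3.51 TPM in endotoxin glands and 8.72 TPM in control glands, and its log2 fold change was -1.10 ± 0.34 (adjusted p = 0.0631), in the authors' deposited table.

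**Figure D4:**
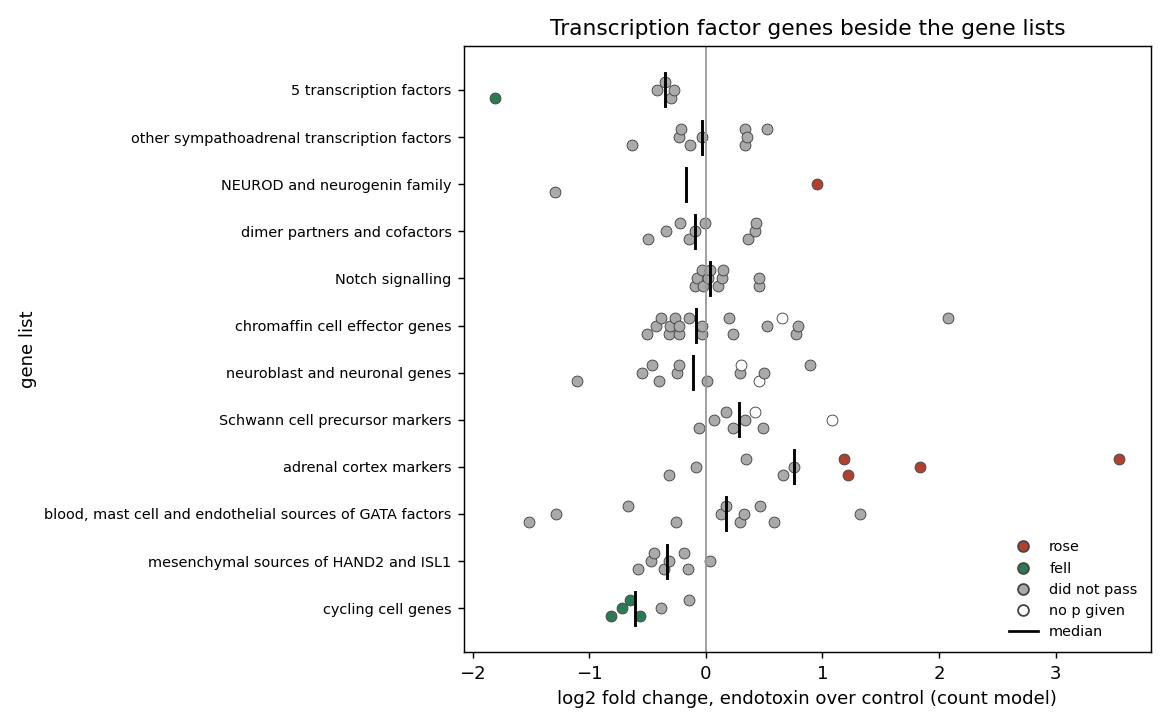
Log2 fold change, endotoxin over control (count model), of the 5 transcription factor genes and of each measured gene of 11 lists, with 1 point per gene and a bar at the median. Passing genes are red where they rose and green where they fell, grey points did not pass, and white points have no p. Red points lie among cortex markers and at ATOH8, and green points among cycling genes and at NEUROD4.

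Some genes of steroid synthesis and of the cell cycle passed in this comparison. Of 9 adrenal cortex markers 4 rose, beside 1.29% of all rows with a p, none fell and 5 did not pass, and their summed means were 4574 TPM in endotoxin glands and 1991 TPM in control glands. Those that rose were CYP17A1, CYP11A1, HSD3B1 and STAR, all of steroid synthesis, with log2 fold changes between 1.19 and 3.55 and adjusted p of at most 0.00817 in the authors' deposited table. Of 9 cycling cell genes 6 were found, and 4 fell, beside 0.426% of all rows with a p. Both lists were chosen with earlier results of these data known, so nothing is read from these counts. In the authors' deposited table CENPF, a kinetochore protein, was at -0.81 ± 0.19 (adjusted p = 0.00274), TOP2A at -0.72 ± 0.18 (adjusted p = 0.00817), BUB1B at -0.65 ± 0.17 (adjusted p = 0.0124) and CDK1 at -0.57 ± 0.15 (adjusted p = 0.0147). The edgeR test on the counts called 1 gene lower among all genes, so at most 1 of these 4 can be among its calls. The summed means of all 6 cycling genes found were 95.3 TPM in endotoxin glands and 120 TPM in control glands. Most of both sums was PCNA, which did not pass (adjusted p = 0.887) and is named after its value was seen. PCNA averaged 80.4 TPM in endotoxin glands and 95.1 TPM in control glands in the authors' deposited table. The part of the steroid synthesis and cycling genes in the values of the 5 transcription factor genes was not tested.

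Cells outside the lineage that can express these factors were examined as well. HAND2 and ISL1 also occur in mesenchymal cells, and of 9 mesenchymal genes 8 were found and none passed. Their median was -0.33, with 7 negative, and their summed means were 963 TPM in endotoxin glands and 1398 TPM in control glands. COL1A1, a collagen chain, was at -0.58 ± 0.40 (adjusted p = 0.59) and COL3A1 at -0.44 ± 0.30 in the authors' deposited table (adjusted p = 0.592). The part of these cells in the HAND2 and ISL1 values was not tested. GATA factors occur in blood, mast and endothelial cells, and of 11 such markers none passed, with a median of 0.17 and summed means of 79.9 TPM in endotoxin glands and 82.7 TPM in control glands. In the authors' deposited table the endothelial genes PECAM1 and CDH5 were at 0.13 ± 0.18 (adjusted p = 0.885) and 0.29 ± 0.22 (adjusted p = 0.657). Of the 11 values, 7 were positive and 4 negative. The T cell genes of this list went both ways in the authors' deposited table, and are named after their values were seen. CD3E was at -0.26 ± 0.40 (adjusted p = 0.912), CD3D at 0.32 ± 0.54 (adjusted p = 0.923) and IL7R at 1.32 ± 0.71 (adjusted p = 0.422). IL7R was low in both groups, at 0.283 TPM in endotoxin glands and 0.115 TPM in control glands. The part of blood, mast and endothelial cells in the GATA3 value was not tested. The mast cell genes KIT at -0.67 ± 0.31 (adjusted p = 0.327), CPA3 at -1.28 ± 1.04 (adjusted p = 0.695) and HDC were all negative in the authors' deposited table, and are named after their values were seen. CPA3 averaged only 0.0816 TPM in endotoxin glands and 0.237 TPM in control glands. HDC averaged 0.867 TPM in endotoxin glands and 2.90 TPM in control glands. Positive in the same list, and also named after they were seen, were GATA1 at 0.58 ± 0.35 (adjusted p = 0.507) and TAL1 at 0.46 ± 0.25 (adjusted p = 0.428). Of 8 Schwann cell precursor markers, 2 had no p and none of the other 6 passed, with a median of 0.28. FABP7, a fatty acid binding protein, averaged 111 TPM in endotoxin glands and 90.9 TPM in control glands in the authors' deposited table, with no p. S100B was at -0.06 ± 0.43 in the authors' deposited table (adjusted p = 0.979), and the summed means of the 8 were 349 TPM in endotoxin glands and 336 TPM in control glands. No measured gene of the lists had a group mean of 0.

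GATA3 can be set beside GATA4 and GATA6, the GATA factors of steroid-producing cells. GATA6 averaged 28.2 TPM in endotoxin glands and 23.9 TPM in control glands, at 0.34 ± 0.17 (adjusted p = 0.388), by values in the authors' deposited table. GATA4 averaged 0.79 TPM in endotoxin glands and 1.12 TPM in control glands, which the authors' deposited table gives as -0.32 ± 0.26 on the log2 scale (adjusted p = 0.688). The level of GATA3 was 1.73 times that of GATA6 in endotoxin glands and 2.74 times in control glands. The difference between GATA3 and GATA6 was not tested.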

How the data were processed

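Libraries were strand-specific, per the labels' protocols. The tools in the submitters' processing notes are Salmon 0.9.1, fastp 0.19.4 and DESeq2, and the build is Oar_v3.1, with no role given for any. The authors deposited estimated counts and TPM per library, and a table of the comparison. Per the file headers, the latter holds group mean TPM, a log2 column and p-values before and after adjustment. It also holds a score and the standard error of the model log2 fold change. In all 19316 rows the authors' deposited log2 column equals the log2 ratio of mean TPM plus 1 within 1e-09. Fold changes printed as model values are the authors' deposited score times that standard error. The 80 rows whose p is set to 1 were taken to lack one. Intervals are normal 95% intervals from that standard error. No sequences or coordinates are given, since no reference of that build was used.

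The members, lists and naming rule were chosen with earlier results of these data known. The rule names the 5 genes found and, per list, up to 4 genes with an adjusted p under 0.05, otherwise the 2 of highest mean. TH, NR5A1, HAND1, ATOH1, GATA4 and GATA6 are named outside it, after their values were seen. Estimated counts were rounded and tested with edgeR 4.0.16 (quasi-likelihood, TMM, filterByExpr, Benjamini-Hochberg) and DESeq2 1.42.0 in R 4.3.3, after the edgeR steps were tested on simulated data. The labels do not say that libraries are from separate fetuses, so p-values measure the spread between these samples, which may be technical. A single listed gene was left out for a reason unrelated to its value and is not reported here.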

Additional observations from a re-analysis of the deposited data

How the results depend on the processing

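For the 5 transcription factor genes, 24 of 25 values under the alternatives kept their sign and stayed within 1 standard error of the model value or on the same side of the threshold. The exception was NEUROD4 at -0.995 on the log2 ratio of mean TPM plus 1, where the added TPM compresses low means. Many of the 24 could hardly have differed. Readjusting p leaves the fold change as it is, and subtracting the model median of 0.012 barely moves it. These settings reuse the comparison on which the genes were chosen and lend the call of NEUROD4 no support, and it meets a mean of 1 TPM only through the control group. No library could be left out of the authors' table, so its calls have no such check. The count of genes without symbols was less stable. edgeR called 29 genes, and between 17 and 63 when each library was left out. The highest count left out endotoxin replicate 4. Leaving out control replicate 1 gave the lowest, and leaving out control replicate 3 gave 18. DESeq2 called 360. The groups share 4 replicate numbers. With these numbers as a replicate block edgeR called 12 genes, and 16 over the same 8 libraries without the block, an alternative chosen after seeing the data. The correlation of deviations of same-numbered libraries lay between -0.186 and 0.099, so the numbers were not taken as pairs, and 1 of the 8 libraries correlated best with its own number. NEUROD4 had the largest standard error of the 5 genes, 0.53, which was also above the median of 0.34 for rows at a like level.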
